A study of Mesocricetus auratus with 24 samples.

Results

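Methylated neighbours of unmethylated CpG-dense windows are 1 kb stretches of the Syrian hamster genome that carry DNA methylation and lie directly beside a stretch that is rich in CpG positions and carries almost none. They numbered 414 of the 22842 windows of 1 kb that held at least 3 measured CpG positions in each of 24 libraries. The level of a window in a library was its methylated reads as a percent of all its reads. A core was a window with at least 30 distinct CpG positions over all libraries and a mean level below 10% in the 4 pools of vehicle-treated colonies, and 11334 windows met this. A member was a window directly before or after a core on the same scaffold, not itself a core, with a mean level of at least 20% in the same 4 pools. Of the 1257 neighbours of a core that were not core, 557 lay below 10%, 286 lay from 10% to below 20%, and the 414 members (32.94%) lay at 20% or more. The levels of the vehicle pools therefore chose the members and their cores, so levels in those pools are a description. Only levels of the other groups can be compared independently of that choice, though all 24 libraries set which windows held enough positions.

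CpG islands are short, CpG-rich stretches, often at gene promoters, that normal cells mostly leave unmethylated. Their flanks are known as shores, where methylation climbs to the high level typical of most of the genome, and shores are known as places where methylation often differs between tissues and between normal and cancer cells. Reduced representation bisulfite sequencing cuts DNA at CCGG sites, so it reads CpG-rich stretches in short, scattered pieces, and bisulfite treatment leaves methylated cytosine readable as cytosine.

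The study followed Syrian hamster (Mesocricetus auratus) fetal cells through a cell transformation assay, in which a carcinogen makes some colonies morphologically transformed. The carcinogen was benzo[a]pyrene (written B[a]P), found in combustion products, and conditioned medium stood in for a feeder layer. There were 6 groups of 4 libraries. The vehicle pools were pooled colonies given 0.2% DMSO and taken on day 9, and the B[a]P pools were pooled colonies given 5 µg/mL B[a]P and taken on day 9. Normal-looking colonies and morphologically transformed colonies, both from dishes given B[a]P at 5 µg/mL, were grown as cultures and taken between days 19 and 25. These 4 groups came from cells of a single male fetus, so they represent 1 animal. The senescent group (day 48) and the bypass group (day 94, after the culture had grown past senescence) came from 1 culture of a transformed colony, typed male, from an assay on pooled female and male fetuses. The labels call the 4 libraries at each of those times technical replicates, so p-values between them measure the spread between libraries of a single culture and not between cultures. Day in culture and bypass of senescence cannot be told apart in that comparison, and a difference between that culture and the colonies or pools also carries a different origin of cells.

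The libraries listed 809562 to 1484688 CpG positions with at least 10 reads, with a median coverage of 21 to 38 reads. Over the 24 libraries a member held between 30 and 8855 reads, with a median of 515 reads and 13 positions per window and library. A core beside a member had a median of 808 reads and 29 positions. The spread between libraries of 1 group was much wider than counting error, and the median SD of a member over 4 libraries ran from 10.1 percentage points in the senescent group to 14.6 in the vehicle pools and normal colonies. In the cores beside them it ran from 1.33 to 2.45 points.

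The members were spread over 147 scaffolds, with at most 19 on a single scaffold, KB708274.1. The core lay only before the member in 197 cases, only after it in 215, and on both sides in 2, which gave 416 pairs of member and core with 413 different cores. A member had a median of 29 distinct CpG positions (quartiles 19 and 44, range 3 to 153), between the 74 of the cores beside them and the 18 of windows at 20% or more that touched no core. As many as 204 members had the 30 positions asked of a core and were kept from being cores by their methylation alone. Among the cores beside members 73.85% stood alone, with no core next to them, against 63.09% of all cores.

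The vehicle level that defined the members had a median of 36.78%, with quartiles at 26.68% and 58.29% and a highest value of 99.52%. Just inside the limit of 20% lay the window at KB708257.1:631001-632000 (vehicle mean 20.19%, bypass mean 68.64%) and the window at KB708163.1:12545001-12546000 (20.39% and 47.84%). Just outside lay KB708265.1:1980001-1981000 (19.97% and 38.51%) and KB708129.1:1731001-1732000 (19.99% and 29.42%). The limit thus cuts through a continuous range of levels. With any 1 vehicle library left out, the rule gave 413 to 420 members, of which 373 to 386 were among the 414.

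Methylation of the members was lowest in the day 9 pools and the normal colonies and highest in the bypass culture. Averaged over the 414 windows it was 45.08% ± 2.17 in the vehicle pools (SD over libraries, n = 4 in each group), 42.82% ± 0.462 in the B[a]P pools, 44.35% ± 4.83 in normal colonies, 47.63% ± 2.32 in transformed colonies, 53.38% ± 1.51 in the senescent culture and 60.12% ± 0.881 in the bypass culture. The pool and colony libraries lay between 38.15% and 49.86%, and these groups overlapped one another with 1 exception. The transformed colonies, from 44.63% to 49.86%, lay above the B[a]P pools, from 42.23% to 43.33%, a difference that was not tested. The senescent libraries, from 51.40% to 54.99%, lay above all of those, and the bypass libraries, from 59.39% to 61.33%, lay above the senescent ones. The number of members at 80% or more went with this order, from 47 in either pool group through 52 in normal colonies, 57 in transformed colonies and 79 in the senescent group to 114 in the bypass group. The bypass group had the highest mean of the 6 groups in 217 members and the lowest in 17.

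The cores beside the members stayed low but showed the same order of groups beyond the vehicle pools. Their mean level was 2.003% ± 0.434 in the vehicle pools, 2.788% ± 0.33 in the B[a]P pools, 3.234% ± 0.667 in normal colonies, 3.525% ± 0.429 in transformed colonies, 4.956% ± 0.232 in the senescent culture and 8.939% ± 0.479 in the bypass culture (SD, n = 4). The vehicle value was held below 10% in every core by the rule. In the bypass group 121 of the 413 cores beside members (29.3%) reached 10% or more, against 17.73% of all cores. In the senescent group this was 14.77% against 7.826%. Whether cores beside members differ from other cores was not tested.

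**Figure D1:**
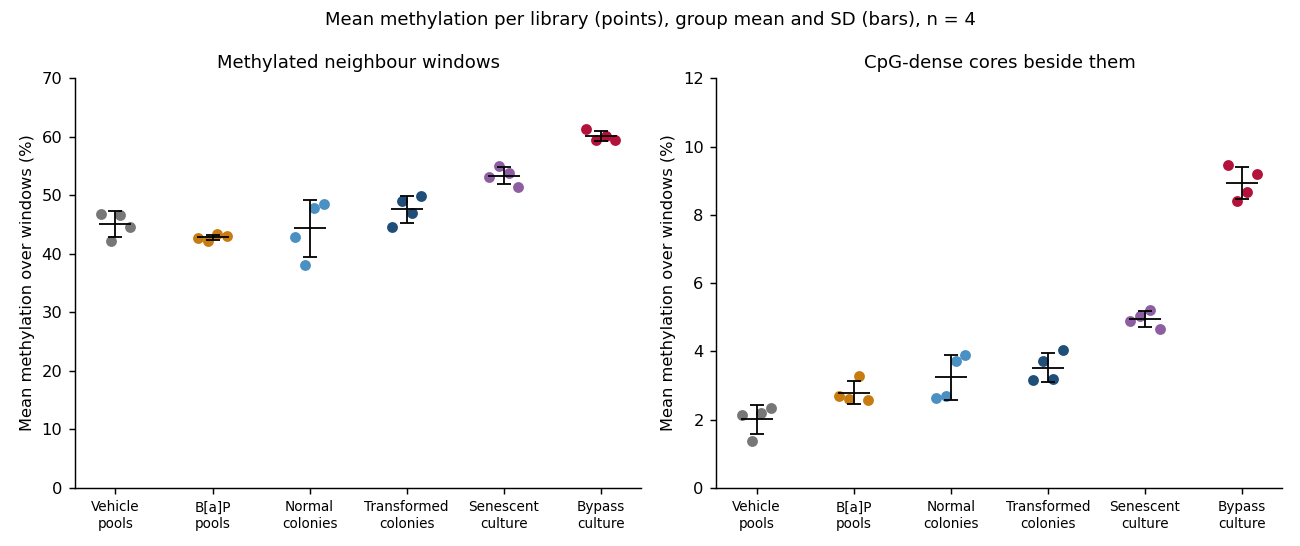
Mean methylation in percent of the 414 neighbour windows (left) and of the cores beside them (right; axis to 12%) in each library, as points, with the mean and SD of the 4 libraries of a group as bars. In both panels the 4 bypass libraries (59.39% to 61.33% on the left) lie above the senescent ones, and these above every pool and colony library.

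The step from a core up to its member was large in all 6 groups. It averaged 43.07 percentage points in the vehicle pools, where the rule set it, and 40.04, 41.12, 44.10, 48.42 and 51.19 points in the B[a]P pools, normal colonies, transformed colonies, senescent and bypass groups. Some steps were lost or inverted outside the vehicle pools: the member lay at or below its core in 6, 2, 6, 7 and 7 windows of those groups in the same order.

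Methylation was higher just past the edge between core and member than just before it, and it climbed further through most of the member. The rule asked for a low core and a methylated member in the vehicle pools, so a step at this edge follows in part from the choice of windows. In window bins of 100 bp that held a position in all 24 libraries, vehicle pools read between 1.203% and 5.097% inside the core, with 5.097% in the last 100 bp before the edge, 23.29% ± 2.41 in the nearest 100 bp of the member (39 windows) and 72.06% ± 2.83 from 700 to 800 bp (32 windows; SD, n = 4). The bypass group read 38.79% ± 1.20 and 86.03% ± 2.38 in the same bins. In the outermost bin, from 900 to 1000 bp (18 windows), the level was lower again, at 56.76% ± 1.7 in the vehicle pools and 75.41% ± 2.81 in the bypass group. Each of the 10 bins of the member was higher in the bypass than in the senescent mean, by 2.128 to 11.74 points, and the last 100 bp of the core were too, at 17.23% ± 2.22 against 11.52% ± 1.22. Different windows fill different bins, so the curve describes the set and not any single window.

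The climb was also seen within windows. In 80 members read on both sides of their middle in every library, the 500 bp next to the core averaged 19.58% ± 1.40 and the 500 bp away from it 61.71% ± 2.75 in the vehicle pools (SD, n = 4). In the senescent group the near and far parts were at 30.05% ± 1.34 and 71.74% ± 0.816, and in the bypass group at 38.62% ± 0.727 and 80.83% ± 0.683. The difference between far and near was between 39.34 and 42.20 points in all 6 groups, so the near and far parts stood higher by similar amounts in the later groups. For 33 members the next window away from the core was measured too. It averaged 61.34% ± 2.38 against 47.12% ± 1.1 for those members in the vehicle pools and 74.29% ± 2.30 against 64.62% ± 2.69 in the bypass group. In the vehicle pools it was the higher of both in 21 of the 33.

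**Figure D2:**
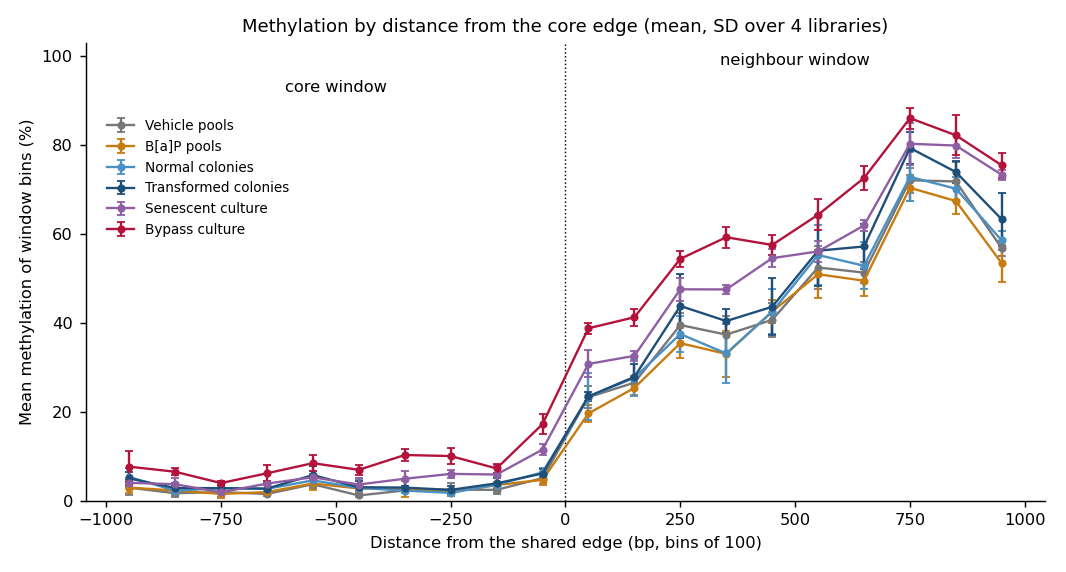
Mean methylation in percent (SD over 4 libraries as bars) against distance in bp from the edge shared by core (negative) and neighbour window (positive), in bins of 100 bp, 1 line for each group. The lines step up at the edge, where the rule placed a low core beside a methylated window. In the bypass group they climb from 38.79% in the nearest to 86.03% in the 700 to 800 bp bin. In the vehicle pools they climb from 23.29% to 72.06% in the same bins. The lines are lower in the outermost bin.

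Single CpG positions listed in the members lay mostly below 20% or above 80% methylation. In the vehicle pools 55.28% ± 4.16 of listed positions were below 20%, 14.04% ± 4.56 lay between 20% and 80%, and 30.68% ± 2.95 were above 80% (SD, n = 4). In the senescent group the class above 80% held 40.02% ± 2.83, and in the bypass group it held 47.64% ± 1.53, with 41.11% ± 1.80 below 20%. Among the positions each library listed, the middle class was smaller than both others in every group. Members with a vehicle mean between 20% and 80% showed the same, with 59.62% of positions below 20%, 14.55% between and 25.83% above 80% in the vehicle pools. A window level of this kind averages methylated and unmethylated positions, so it depends on which positions a library lists. The 211 positions of members listed in all 24 libraries were divided differently. Their middle class held 39.22% ± 6.01 in the vehicle pools and 27.61% ± 4.26 in the bypass group, and it exceeded the class below 20% (21.21% ± 3.92 and 11.61% ± 2.07) in all 6 groups. The class above 80% held 39.57% ± 2.21 in the vehicle pools, 54.03% ± 3.17 in the senescent group and 60.78% ± 3.03 in the bypass group, so it was larger in the later groups over these positions as well.

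**Figure D3:**
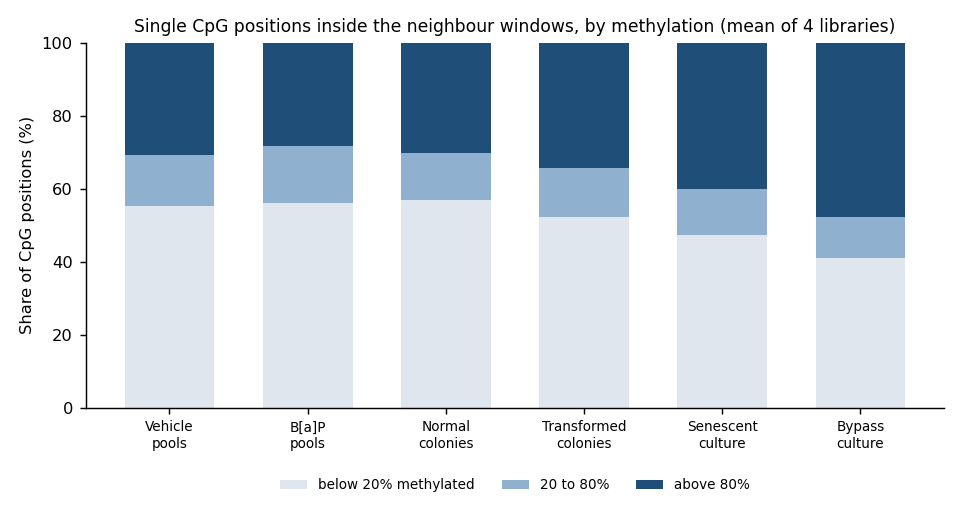
Share in percent of the CpG positions inside the neighbour windows that were below 20%, from 20% to 80% or above 80% methylated, as stacked bars, mean of 4 libraries in each of the 6 groups. The dark part, above 80%, grows from 30.68% in the vehicle pools to 47.64% in the bypass culture.

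The comparison of the bypass with the senescent culture asks how methylation differs before and after the culture grew past senescence. The methylation levels of these libraries played no part in choosing the members. The mean of the members was 6.749 points higher in the bypass group (SE over libraries 0.873, n = 4 against 4), and the library means did not overlap. The median difference of a member was 6.508 points (quartiles -1.228 and 14.34). It was positive in 293 members (70.77%) and negative in 121, with 153 (36.96%) higher and 38 (9.179%) lower by at least 10 points. Over all measured windows 60.75% were positive, with 13.86% higher and 4.185% lower by at least 10 points. Among the neighbours from 10% to below 20% these shares were 72.38%, 39.51% and 6.643%. Over all 22842 measured windows the mean difference was 2.618 points and the median 0.6287, over the 8464 windows at 20% or more that touch no core 2.175 and 1.485, and over the 286 neighbours from 10% to below 20%, 8.402 and 6.499. The difference was larger in members that were lower in the vehicle pools: 8.570 points in the 225 members at 20% to 40%, 5.570 at 40% to 60%, 4.944 at 60% to 80% and 2.314 in the 47 members at 80% or more, an order that was not tested. In windows elsewhere the same classes differed by 6.533, 3.232, 1.426 and 0.9409 points. Within the members the mean difference was 7.910, 5.147, 7.752 and 7.302 points in windows with under 15, 15 to 29, 30 to 59 and 60 or more distinct positions. Windows elsewhere in those classes of CpG number differed by 0.7876, 2.52, 3.356 and 6.244 points. The part that CpG number plays in the larger difference of the members was not tested.

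Libraries list different positions, so the difference was also taken over positions listed in all 8 libraries. With member and core both read this way only 25 windows were left, their difference was 4.441 points, and the library means overlapped. With only the member read this way, a check added after seeing the data, it was 6.174 points over the 205 members with at least 1 such position and 6.541 over the 147 with at least 3, where all positions gave 7.159 and 7.014, and the library means did not overlap. The cores beside the members differed by 3.983 points (SE 0.266), and the step was 2.766 points larger in the bypass group (SE 0.753), without overlap of the library means. The step difference depended on the setting: it was 0.3689 points over the 25 windows read at shared positions and -0.6632 for the 136 members at 50% or more, with overlapping library means in both, and 3.324 with overlap at a coverage minimum of 20 reads. Across the 414 members the difference of a member and that of its core were nearly unrelated (Pearson r 0.0834, Spearman rho 0.16, both over windows that share the same 8 libraries and their depth).

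Window by window, a squeezed quasi-binomial test of methylated and unmethylated reads was run on the 24638 windows that held enough positions in the 8 libraries and had a pooled methylation of 5% to 95%, and a window was called at a Benjamini-Hochberg adjusted p below 0.05 and a difference of at least 10 points. It called 21 members higher and 1 lower in the bypass group, of 379 members tested, and 35 could not be tested because they lay above 95% (29), below 5% (2) or held too few positions (4). That is 5.54% of the members tested called higher, beside 3.28% of all windows tested, while 0.296% of these were called lower and 3.58% in either direction. Libraries did not overlap in 45 members that were higher and 6 that were lower, beside 8.72% and 1.86% of all windows. At an unadjusted p below 0.05 there were 99 members, 85 of them higher, beside 19.9% of all windows. Of the 21 calls, 19 were among members at 20% to 40% in the vehicle pools (8.52% of those tested, beside 6.22% of windows elsewhere in that class). Whether the members' share exceeds that of windows at the same level was not tested. The edgeR quasi-likelihood test called none (50 members at an unadjusted p below 0.05). Leaving out 1 library left 9 to 17 calls higher, fewest (9) without bypass replicate 2 or senescent replicate 3, then 11 without bypass replicate 1, 12 without bypass replicate 4, senescent replicate 1 or senescent replicate 4, and 13 without bypass replicate 3. Over all windows tested, calls higher fell as well, from 809 to between 368 and 660 with 1 library left out.

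**Figure D4:**
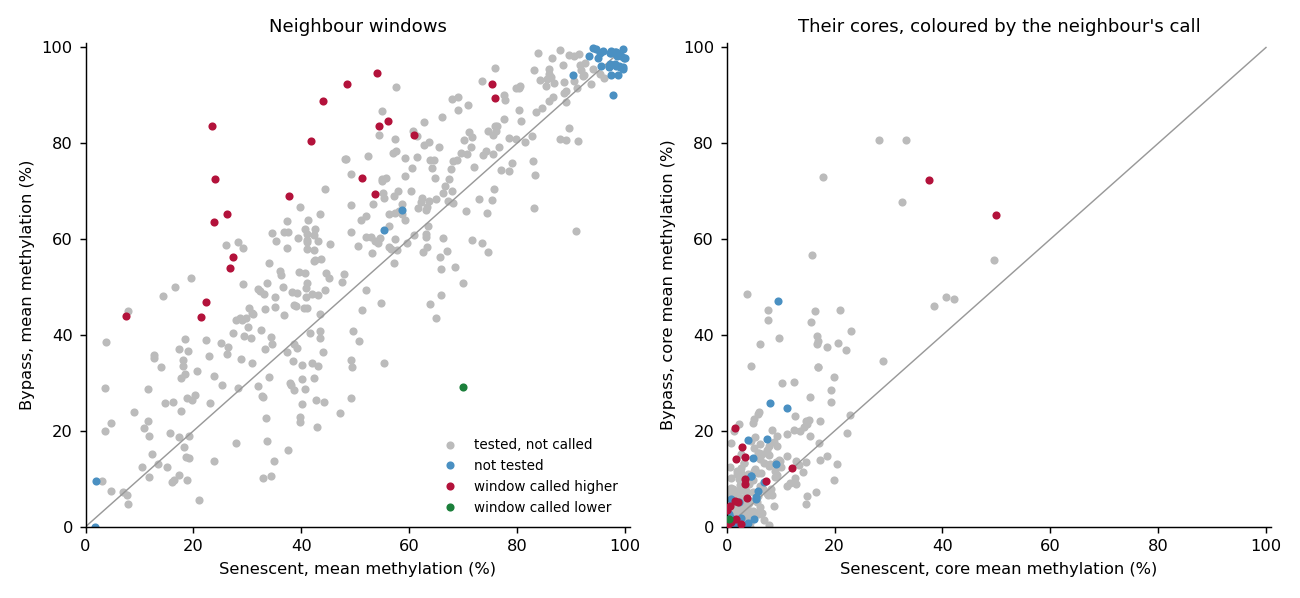
Mean methylation in percent of 4 libraries in the senescent (x) and bypass (y) groups, 1 point for each of the 414 neighbour windows (left) and for the mean of its cores (right), with the line of equal level. Most neighbour windows (293 of 414, or 70.77%) lie above the line, beside 60.75% of all measured windows. Red points are the 21 called higher, the green point the 1 called lower, blue points the 35 not tested.

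The largest called increase was in the window at KB708147.1:1633001-1634000, with 55 CpG positions. Its 4 senescent libraries read 21.78%, 4.63%, 43.58% and 24.01%, and its 4 bypass libraries 70.69%, 92.38%, 83.56% and 88.02%. The lowest bypass library lay well above the highest senescent library. The mean rose by 60.17 points from 23.50% ± 15.9 to 83.66% ± 9.37 (SD, n = 4; limma-squeezed quasi-binomial adjusted p = 0.00593). Its core stood at 1.472% ± 1.12 and 20.68% ± 5.52 in the same groups. The transformed colonies were divided at this window, with replicate 1 at 4.192% and replicates 2 to 4 between 75.80% and 92.95%, and one normal colony reached 65.24% while another was at 0%.

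In the window at KB708133.1:4337001-4338000 (36 positions) the senescent libraries read 19.52%, 19.14%, 28.03% and 29.51% and the bypass libraries 60.93%, 64.10%, 73.38% and 91.40%. The groups were well apart, and the window rose by 48.41 points (adjusted p = 0.00523 by the limma-squeezed test). The 16 pool and colony libraries lay between 2.509% and 56.29%, below every bypass library. Its core hardly differed, at 7.268% ± 1.75 and 9.554% ± 6.35.

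The window at KB708200.1:3146001-3147000, with only 14 positions, read 18.02%, 73.81%, 48.12% and 36.05% in the senescent libraries and 91.47%, 84.66%, 93.56% and 85.68% in the bypass libraries. The bypass libraries were close together and the senescent ones wide apart, without overlap. It rose by 44.84 points (adjusted p = 0.0381 by the limma-squeezed test), a call that was lost in 6 of the 8 fits with 1 library left out and, over positions listed in all 8 libraries, stood at 29.73 points with an adjusted p of 0.101. Its core stayed near 0, at 0.5947% ± 0.696 and 4.359% ± 2.03.

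At KB708274.1:809001-810000 (76 positions) the senescent libraries read 32.88%, 40.20%, 69.57% and 51.44% and the bypass libraries 96.78%, 87.39%, 95.15% and 90.59%. It rose by 43.95 points without overlap (adjusted p = 0.0105 by the limma-squeezed test). Here the core differed as well, at 8.672% ± 4.42 in the vehicle pools, 37.43% ± 8.52 in the senescent and 72.36% ± 5.44 in the bypass group. Core and neighbour thus both stood higher in the bypass than in the senescent group.

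At KB708127.1:51584001-51585000 (33 positions) the senescent libraries read 40.25%, 70.13%, 53.26% and 52.86% and the bypass libraries 85.75%, 93.26%, 99.47% and 100%. The window rose by 40.49 points without overlap (adjusted p = 0.0122 by the limma-squeezed test; 0.0556 without bypass replicate 2). The vehicle pools lay between 16.36% and 30.25% there, below every senescent library. With edgeR the 5 windows just described had adjusted p-values of 0.129 to 0.308. Over positions listed in all 8 libraries the KB708127.1 window kept its call, at 38.06 points (adjusted p = 0.0196 by the limma-squeezed test). The windows described on KB708147.1, KB708133.1 and KB708274.1 did not enter the test over those positions, so this check is missing for them.

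The single called decrease was at KB708136.1:11384001-11385000 (40 positions), where the senescent libraries read 53.79%, 100%, 67.57% and 58.60% and the bypass libraries 40.47%, 20.90%, 37.24% and 17.92%. The groups did not overlap and the mean fell by 40.86 points (adjusted p = 0.0331 by the limma-squeezed test). This depended on which positions were listed: over positions listed in all 8 libraries the difference was 0.7588 points in the other direction, and the call was also lost in 7 of the 8 fits with 1 library left out. Its core was below 3% in every library of the 6 groups.

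**Figure D5:**
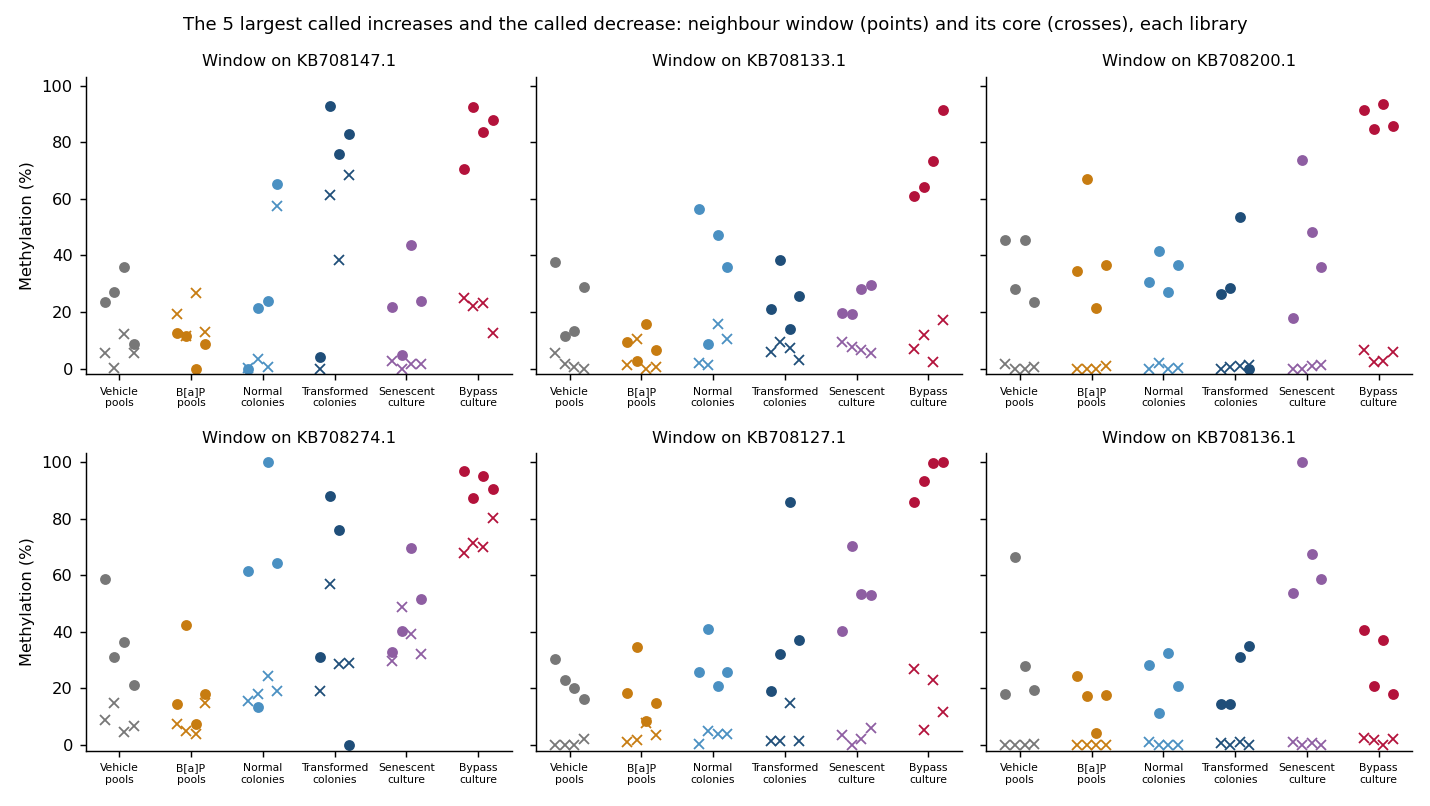
Methylation in percent of 6 neighbour windows (points) and their cores (crosses) in each of the 24 libraries by group: the 5 largest called increases from senescent to bypass and the called decrease (on KB708136.1). The bypass points of the first 5 lie above all senescent points, with the core near 0 on KB708200.1 and at 72.36% on average on KB708274.1.

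The cores beside the members were mostly too low to test, since a window entered the test only with pooled methylation of 5% to 95%. Of the 413, 155 were tested, 15 were called higher and 0 lower. That is 9.68% of those tested called higher, beside 9.26% of all cores tested and 3.28% of all windows tested. An unadjusted p below 0.05 was found in 55, 53 of them higher, beside 1056 of the 2883 cores tested in all. The edgeR test called no window. Since cores were below 10% in the vehicle pools by the rule, only the cores with the higher levels in these libraries entered, and the counts describe a selected part. Member and core were rarely called together. Of the 416 pairs, 21 had the member called higher and 15 the core, and 2 had both. In the other 19 pairs with a member called, the core was tested and not called in 8 and not tested in 11.

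Whether a member and its core changed by different amounts was tested pair by pair with limma on the difference between adjacent windows, over 2376 adjacent pairs of which 395 were pairs of member and core. Of these 395 steps, 2 were called wider and 2 narrower in the bypass group, beside 0.758% and 0.210% of all adjacent pairs. By limma, 75 of the 395 had an unadjusted p below 0.05, beside 15.4% of all adjacent pairs. The median change of a step was 3.478 points, beside 1.789 over all pairs. In both wider steps the member was higher in the bypass group over a low core. The step at the KB708133.1 window above widened by 46.12 points (SE 8.83; limma adjusted p = 0.0294). The step at KB708127.1:50171001-50172000 widened by 38.64 points (SE 5.83; limma adjusted p = 0.0104). The member read 10.08%, 4.77%, 5.676% and 9.292% in the senescent and 43.69%, 46.85%, 37.21% and 48.26% in the bypass libraries. Its core stayed below 5% in all 8. The senescent mean of this member, 7.454% ± 2.62, was the lowest of the 6 groups. The member averaged 24.51% ± 14.5 in the vehicle pools, 32.94% ± 19.2 in normal colonies and 44.46% ± 22.9 in transformed colonies (SD, n = 4). The B[a]P pools lay between the vehicle pools and normal colonies. The bypass mean was thus not above that of the transformed colonies, and the wider step goes with a low senescent level.

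In both narrower steps the member was high in both groups and the core was higher in the bypass group. At KB708222.1:2432001-2433000 the step fell by 46.88 points (SE 8.81; limma adjusted p = 0.0294). The member read 86.94% ± 5.53 and 92.51% ± 2.42 in the senescent and bypass groups, and its core of 154 positions read 27.00%, 33.92%, 14.99% and 36.76% against 86.93%, 79.46%, 78.10% and 77.99%. At KB708274.1:802001-803000 the step fell by 46.19 points (SE 8.54; limma adjusted p = 0.0294). The member read 82.82% ± 9.08 and 81.43% ± 6.0, and its core read 5.866%, 1.662%, 7.335% and 0.2622% in the senescent and 39.97%, 52.81%, 49.17% and 52.38% in the bypass libraries. The 4 calls are few and not stable to single libraries: leaving out 1 library gave 0 to 4 wider and 0 to 3 narrower steps.

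The comparison of transformed with normal colonies asks whether the morphological change goes with a change in methylation among colonies that all had B[a]P. The mean of the members was 3.275 points higher in transformed colonies (SE 2.68, n = 4 against 4), and the libraries overlapped, with normal colonies at 42.93%, 38.15%, 47.76% and 48.57% and transformed colonies at 44.63%, 48.99%, 47.03% and 49.86%. Normal replicate 2 was the lowest of the 8, and without it the difference was 1.207 points. Windows elsewhere differed by 2.779 points and the cores beside members by 0.2911 (SE 0.396). The difference of the members was thus within the spread between replicates.

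No member was called among the 396 tested between the colony groups, and 0.0% of all 26825 windows tested were called in either direction. On simulated data this test recovered only 1% of changes of 20 points and 16% of changes of 40 points between these groups. The changes were planted in a small random part of all windows, so the rates hold for that setting and not for the members. The median dispersion, the spread between libraries relative to counting error, was 68.7 in the members tested and 39.12 over all windows tested. The lack of calls therefore does not show a lack of change. At an unadjusted p below 0.05 there were 30 members, 25 of them higher in transformed colonies, beside 8.05% of all windows, and libraries did not overlap in 3 members that were higher and 3 that were lower, beside 2.17% and 0.969% of all windows. The edgeR test called 0, with 7 members at an unadjusted p below 0.05. The median difference was 3.274 points, beside 2.395 over all windows tested. The smallest adjusted p, 0.547 by the limma-squeezed test, was shared by the 5 members with the smallest p. Of these, the window at KB708290.1:3120001-3121000 was lower in 3 of 4 transformed colonies: normal colonies read 57.24%, 54.17%, 70.04% and 61.29%, and transformed colonies 32.51%, 31.92%, 34.49% and 70.72%. In the test, which leaves out positions in the top 0.1% of coverage, its difference was -30.38 points, and over all positions -18.27.

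The other 4 were higher on average in transformed colonies. At KB708367.1:664001-665000 normal colonies ranged from 42.61% to 66.79% and transformed colonies from 65.33% to 89.56%. At KB708137.1:19225001-19226000 the ranges were 16.21% to 37.72% and 34.47% to 63.25%. Those at KB708179.1:1636001-1637000 were 4.246% to 65.78% and 60.27% to 88.41%. At KB708159.1:12180001-12181000 they were 19.86% to 33.33% and 28.19% to 73.66%. The groups overlapped in each of these 4 windows. For the steps, 0 of 404 pairs of member and core were called by limma (25 at an unadjusted p below 0.05, beside 4.81% of the 1810 adjacent pairs), and the smallest adjusted p was 0.877. The 5 steps with the smallest p had changes between -36.18 points, at KB708146.1:11545001-11546000, and 36.42 points, at the KB708159.1 window named above.

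The B[a]P pools against the vehicle pools are given as a description only, because the vehicle libraries chose the members. The members averaged 2.253 points lower in the B[a]P pools and their cores 0.7848 points higher, and windows at 20% or more elsewhere, chosen by the same libraries, were 0.4953 points higher. Individual library means were 46.77%, 42.18%, 46.71% and 44.65% in the vehicle pools and 42.75%, 42.23%, 43.33% and 42.99% in the B[a]P pools, which overlap. None of the 396 members fitted was called, beside 0.0% of 18421 windows tested (31 members at an unadjusted p below 0.05, beside 6.32% of all windows; edgeR 0 called and 9 members). Libraries did not overlap in 2 members that were higher and 13 that were lower in the B[a]P pools, beside 1.64% and 1.23% of all windows, and nothing is read from these counts.

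The members with most CpG positions show how differently these windows can behave. The window at KB708174.1:2072001-2073000 (153 positions) stood at 24.54% ± 11.1 in the vehicle pools, 26.36% ± 11.1 in the B[a]P pools, 38.29% ± 14.7 in normal and 34.87% ± 8.17 in transformed colonies, 27.35% ± 8.56 in the senescent and 56.38% ± 8.59 in the bypass group (SD, n = 4). Its bypass libraries (44.17% to 63.86%) lay above its senescent ones (17.63% to 34.70%), and it was called higher (adjusted p = 0.0106 by the limma-squeezed test), while its core stayed below 2% in all 24 libraries.

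The window at KB708574.1:18001-19000 (144 positions) had no such order, with group means from 21.40% in the B[a]P pools to 40.23% in the senescent group and single senescent libraries anywhere between 7.463% and 68.96%. The window at KB708149.1:9647001-9648000 (115 positions) likewise had group means between 33.98% and 48.96% with overlapping libraries. In the window at KB708344.1:278001-279000 (109 positions) the means went from 35.59% ± 11.4 in the vehicle pools to 60.12% ± 11.6 in normal colonies, 70.15% ± 4.77 in the senescent and 80.79% ± 11.2 in the bypass group, and its core from 8.828% ± 1.90 to 45.04% ± 23.3 in the bypass group. Senescent and bypass libraries of that window overlapped.

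The window at KB708201.1:7246001-7247000 (106 positions, up to 8855 reads) differed little between senescent (47.99% ± 8.08) and bypass (52.68% ± 3.02), while its core stood at 4.020% ± 2.83 in the vehicle pools, 20.69% ± 5.93 in the senescent and 38.39% ± 21.0 in the bypass group. In bypass replicates 1 and 2 of that pair the core, at 54.88% and 53.42%, lay above its neighbour.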

How the data were processed

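Reduced representation bisulfite libraries were made with a Diagenode Premium RRBS kit, per the labels' protocols. Each deposited table lists CpG positions with a count of covering reads and the percent of methylated and unmethylated reads, per the file headers, with no position under 10 reads. The submitters' processing notes name methylKit 1.10.0, R 3.6.1, Bowtie2, Bismark 0.22.1, Trim Galore 0.5.0 and bcl2fastq 2.20.0.42 without settings. The genome build and any removal of PCR copies are not given in the sources used here, so coordinates are those of the deposited tables and no gene or sequence was assigned. PCR copies are not independent molecules, so read counts overstate precision.

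Coverage times percent gave methylated reads, whole within 0.06 reads. Strands were kept apart. Windows began at multiples of 1000 bases. The window test used a logistic quasi-binomial model on windows with 3 positions in each of 8 libraries and pooled methylation of 5% to 95%, without the top 0.1% of coverage, with dispersions squeezed by limma's empirical Bayes method in 10 classes of pooled methylation. Steps were tested with limma 3.58.1 with a trend. Both were adjusted by Benjamini-Hochberg over all windows or pairs. They were tried on simulated data with changes of 20 and 40 points in a random part of all windows or pairs. The window test recovered 5% and 48% of these for bypass against senescent and 1% and 16% between colonies. The step test recovered 21% and 69%, and 20% and 58%. edgeR 4.0.16, R 4.3.3, Python 3.11.15, numpy 2.4.6, scipy 1.17.1, pandas 2.3.3 and matplotlib 3.10.9 were used. Named windows were the 5 members with the largest called change in each direction without overlap of libraries, or where there was no call the 5 members of lowest p, the same for steps, the 5 with most positions, and 2 on each side of the 20% limit. The members, lists and tests were chosen with earlier results of these data known. No 2 libraries of a group agreed within counting noise (mean chi-square per position 17.53 to 42.75).

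Alternatives covered edgeR, unsqueezed dispersions, coverage and position minimums, other limits for cores and members, shifted windows, other weights, positions listed in all 8 libraries, a replicate block, each library left out and scaffolds of lower bypass coverage left out. A check of the members over shared positions alone was added after seeing the data.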

Additional observations from a re-analysis of the deposited data

Results flagged for a closer look

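Among 18 sets of 4 library means examined (members, cores and steps in 6 groups), 1 had a library far from the others. The cores beside the members averaged 3.278% in B[a]P pool replicate 3, while replicates 1, 2 and 4 lay at 2.687%, 2.604% and 2.582%. Chance alone sets apart about 1 in 20 such sets, and the 18 are not independent, since a step is a member minus its core in the same library.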

How the results depend on the processing

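The difference of the members between bypass and senescent libraries was positive under all alternatives run, from 3.629 points (members at 50% or more, 136 windows) upward; it was 4.441, with overlapping library means, over 25 windows read with their cores at positions listed in all 8 libraries. The count of 21 members called higher was less stable: 0 with dispersions not squeezed (77 members at an unadjusted p below 0.05) or with edgeR, 10 with a replicate block (9 of the 21 among them), 4 of 102 tested over positions listed in all 8 libraries, 1 among members at 50% or more, and 9 to 17 with 1 library left out. The 1 call lower was 0 under each of these, with at least 5 positions per window and with no limit on pooled methylation, and 0 to 1 with 1 library left out. The difference of that window over positions listed in all 8 libraries was 0.7588. Calls higher over all windows tested fell as well, from 809 to 155 with dispersions not squeezed and 0 with edgeR. They were 365 with a replicate block, 236 over positions listed in all 8 libraries, and 368 to 660 with 1 library left out. The step between groups was 0.3689 points over positions listed in all 8 libraries, 3.846 with cores below 5% and -0.6632, so reversed, for members at 50% or more; it was 2.206 to 3.275 with 1 library left out. The difference of the cores was 3.15 with windows weighted by reads, 2.722 with cores below 5% and 3.447 with shifted windows. For members at 50% or more the cores differed by -0.01082 between colonies (reversed) and the step by -4.669 between B[a]P and vehicle pools, and with shifted windows the cores of the pools differed by 0.3783. Called steps, 2 wider and 2 narrower, became 0 and 0 with a replicate block, over shared positions and for members at 50% or more, 1 and 1 on an arcsine scale, and 1 narrower with cores below 5%; with 1 library left out they ran from 0 to 4 and from 0 to 3. The cause was not tested in any of these. Same-numbered libraries did not deviate together (correlations -0.0277 to 0.0302), so no pairing by number was seen, though 4 libraries per group cannot exclude one. With the block, members called between colonies or pools stayed at 0 (over all windows tested, 5 were called higher between colonies and 2 between pools). With 1 library left out the colony difference of the members was 1.207 to 4.681 points and that of the pools -3.219 to -1.689. Among the recomputed counts and means, 287 stayed within the replicate spread or within 1.5 times the count, 54 moved further and 2 reversed. Depth limits single windows: a member held as few as 30 reads in a library.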
